A study of Mus musculus with 8 samples.

Results

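Translation factors are the proteins that load ribosomes onto mRNA, select the start codon, elongate the peptide chain and release it, and their genes are described here in mouse B cells that lack Prmt5. Members were taken by symbol: every row of the gene table whose name begins with Eif followed by a digit from 1 to 6 or with Eef followed by 1 or 2, together with Etf1 and Gspt1. Of 70 such rows, 4 eIF2 kinase genes, 2 sex-linked eIF2 gamma subunit genes and 4 pseudogenes were removed, which left 60 of the 39017 genes in the table. Of these, 57 had a mean normalized count of at least 10 over the libraries and were tested, and Eef1a2, Eif2c5 and Eif4e1b were below that level.

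The cells were induced germinal center B cells (iGBs), splenic B cells grown on 40LB fibroblasts that express CD40L and BAFF, with IL-4 at 1 ng/mL, and harvested at day 4. RNA was sequenced after removal of ribosomal RNA from 4 Prmt5-null libraries (PRMT5-10617, PRMT5-10618, PRMT5-10770 and PRMT5-10771) and 4 control libraries (CTRL-10650 and CTRL-10370, then CTRL-10596 followed by CTRL-10597), all independent samples, and the comparison asks which transcripts change when Prmt5 is lost. Prmt5-null cells were PRMT5 FF Cgamma1-cre and controls carried Cγ1-cre alone, all on C57BL6/J. Reads on genes ranged from 42752293 to 47174851 in Prmt5-null and from 36731721 to 50366174 in control libraries. Cγ1-cre deletes only in B cells that have been activated, so cells that escaped deletion can be in the Prmt5-null cultures. The study describes the depletion of Prmt5 as complete at day 4. B cells were separated from the feeder fibroblasts by elutriation, a sorting by size. The study ran 2 experiments, and the labels do not tie a library to either.

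Values are normalized counts, that is reads on the exons of a gene divided by a size factor of the library. They are listed in the order of the libraries given above. Differences are log2 fold changes of Prmt5-null over control on the scale log2(normalized count + 1), tested with limma and adjusted over all 16250 genes tested by the Benjamini-Hochberg method. A gene is said to have risen or fallen where its adjusted p was below 0.05.

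Prmt5 itself (ENSMUSG00000023110, chr14:54507187-54517525, minus strand) checks the labels. It had 1291, 1994, 1060.3 and 1808 normalized counts in the Prmt5-null libraries and 13087.5, 11084, 11657 and 11267 in the controls. Every Prmt5-null library was below every control, and Prmt5 fell by 2.98 on the log2 scale (standard error 0.17, limma adjusted p = 6.14e-06). Reads across the exon at chr14:54513291-54513454 gave inclusion levels of 0.989 to 1 in the controls, and of 0.027 to 0.304 where Prmt5 was deleted.

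Initiation in animal cells begins with eIF2, which carries the initiator tRNA to the small ribosomal subunit, where eIF1, eIF1A, eIF3 and eIF5 help it scan for a start codon. The eIF4F complex brings the mRNA: eIF4E binds the cap, eIF4G is the scaffold, and the helicase eIF4A, aided by eIF4B and eIF4H, unwinds the leader. eEF1A then delivers each aminoacyl-tRNA, eEF2 moves the ribosome along, and eRF1 and eRF3 release the finished chain. Activated B cells enlarge and divide quickly, and their rate of protein synthesis rises far above that of resting cells.

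Among the 57 members tested, 6 rose in Prmt5-null cells, which is 10.5% against 6.51% of all genes tested, and 4 fell, which is 7.02% against 7.33%. The risers were Eef2k, Eif4b, Eif4enif1, Eif3k, Eef1g and Eif3l, and Eif4g3, Eif1, Eif4g2 and Gspt1 fell. Only Eef2k also changed by at least 1.5-fold, against 6.48% of all genes tested. The 4 Prmt5-null libraries lay above all controls for 8 members (14.0%), where 9.67% of all genes did so, and below all controls for 4 (7.02%), where 10.2% did. Read against those shares, counts of this size in 57 genes give no result about the members as a list.

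The median log2 fold change of the members was 0.00, as it was over all genes tested, with 29 positive and 28 negative. Changes were small: 43 members differed by less than 1.2-fold, and the median standard error was 0.09 on the log2 scale. The 5 members Eef2k, Eif4b, Eif4enif1, Eif1 and Eif4g3 were called under each of 17 alternative fits, among them those leaving out each library in turn, and the other 5 calls were lost under at least 4 of them. In bulk RNA, fewer cells of a type and less RNA per cell cannot be told apart.

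**Figure D1:**
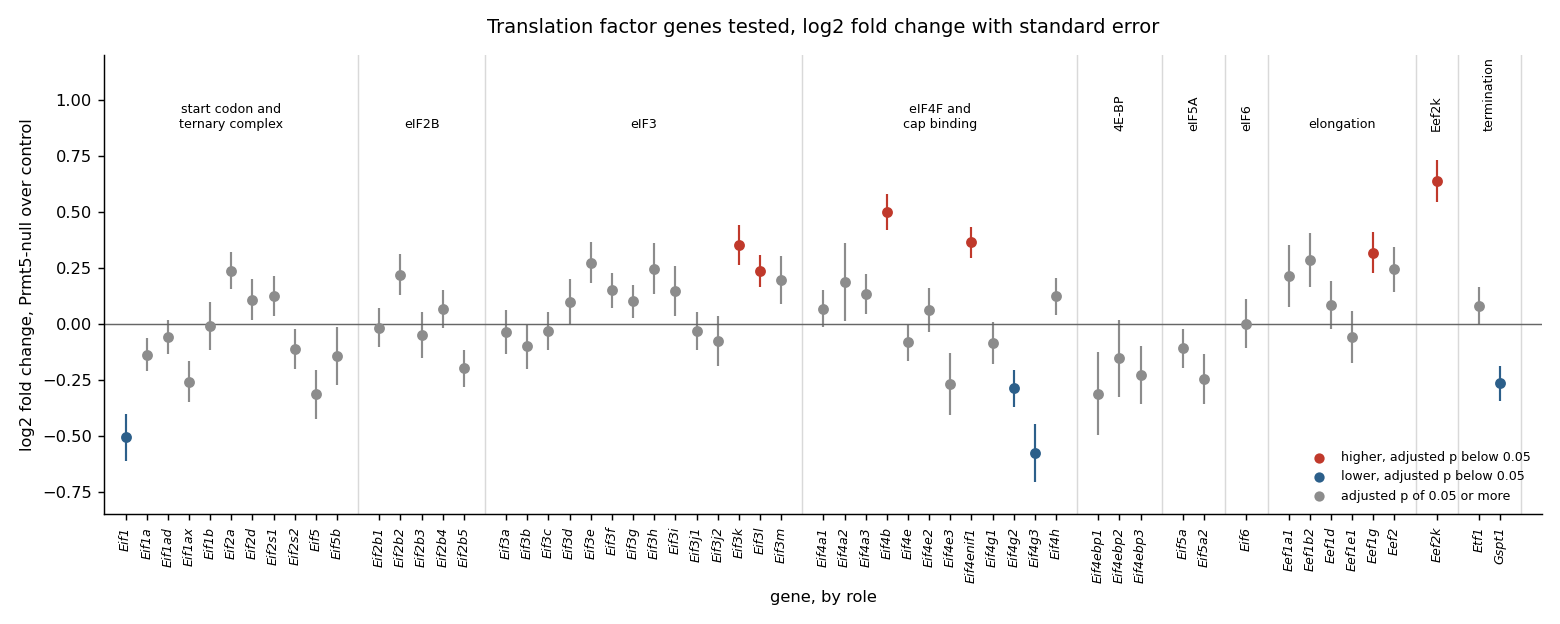
Log2 fold change (Prmt5-null over control) of each of the 57 translation factor genes tested, grouped along the horizontal axis by role as read from the symbol, with bars for 1 standard error. The 6 genes in red rose and the 4 in blue fell at an adjusted p below 0.05 (limma), and most others lie close to 0.

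Of the genes for start codon selection and the ternary complex of eIF2, GTP and initiator tRNA, 1 of 11 fell (9.09%, against 7.33% of all genes tested). Eif1, whose product keeps the scanning ribosome from stopping at poor start codons, had 1649.9, 2220.4, 1743 and 1884 normalized counts in the Prmt5-null libraries and 2562, 2719, 2367 and 2971 in the controls. All Prmt5-null libraries were below the lowest control, and Eif1 (ENSMUSG00000035530, chr11:100319885-100322096, plus strand) fell by 0.51 on the log2 scale (standard error 0.10, limma adjusted p = 0.00785). Its counts are uncertain where copies share sequence, since 19.2% of the 100-base windows of its transcripts also occur in other annotated genes. Eif5, the GTPase activator of eIF2, had 7760.5, 10705, 7992 and 9483 against 10759.9, 10164, 10883 and 12686 in controls, with PRMT5-10618 alone among the control values. The log2 fold change of Eif5 was -0.32 with an adjusted p of 0.0782, and without PRMT5-10618 it was -0.40 with an adjusted p of 0.0206. Eif2s1, the alpha subunit of eIF2 that stress kinases phosphorylate, had 12312 ± 1318 (SD, n = 4) in Prmt5-null and 11272 ± 850.2 in control cells, a difference within the spread (log2 fold change 0.12, limma adjusted p = 0.388). Eif2a, a separate factor that can bring initiator tRNA to the ribosome without eIF2, had a log2 fold change of 0.24 (adjusted p = 0.0786), and 0.30 (adjusted p = 0.0312) without CTRL-10370.

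The 5 eIF2B genes encode the factor that reloads eIF2 with GTP, and none was called by limma, edgeR or DESeq2, although 2 had an unadjusted p below 0.05. Eif2b5, the catalytic subunit, had 6111, 5400.4, 6627 and 5297 normalized counts in Prmt5-null libraries and 6781, 6970.1, 6503 and 6552 in controls. PRMT5-10770 lay among the controls and the other 3 below them (log2 fold change -0.20, limma adjusted p = 0.134). Without that replicate the value was -0.26 with an adjusted p of 0.0331. Eif2b2 had 2995, 2783, 3556 and 2718 against 2636, 2663, 2484 and 2519, so the groups did not overlap, while its log2 fold change of 0.22 had an adjusted p of 0.132.

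The 14 genes of eIF3, the large complex that joins the small subunit to eIF4G, were positive in 9 cases and negative in 5 (median log2 fold change 0.12), and 2 rose (14.3%, against 6.51% of all genes tested). Eif3k and Eif3l encode the peripheral pair of subunits that bind each other in the complex. Eif3k (ENSMUSG00000053565, chr7:28971372-28981864, minus strand) had 11751, 10993, 14220.5 and 11252 normalized counts in Prmt5-null libraries and 9809, 9757, 9464 and 8622 in controls. All Prmt5-null values were above the highest control, and the log2 fold change was 0.35 (standard error 0.09, limma adjusted p = 0.0244). The Eif3k call was lost without PRMT5-10617 (adjusted p = 0.0512) and without CTRL-10596 (0.0599) or CTRL-10597 (0.0723). Eif3l had 21374, 19878, 22421 and 20505 against 18781, 17694, 17702 and 17292, again without overlap, and rose by 0.24 (adjusted p = 0.0472). Its call was the least steady: it was lost on leaving out any library but PRMT5-10618, with adjusted p from 0.0629 to 0.114. Eif3a, which holds the complex together, had 25054 ± 2678 and 25683 ± 2371 (SD, n = 4) in Prmt5-null and control cells, a log2 fold change of -0.04 (adjusted p = 0.84).

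Among the 12 genes grouped by symbol under eIF4F and cap binding, 2 rose and 2 fell (16.7% each, against 6.51% and 7.33% of all genes tested). Eif4b encodes the cofactor that stimulates the helicase eIF4A and is phosphorylated by S6 kinase. It had 55526, 49984, 59031 and 53606.5 normalized counts in the Prmt5-null libraries against 39029.8, 38802, 37633 and 38764 in the controls. The controls lay within a narrow band and each Prmt5-null library was well above it. Eif4b (ENSMUSG00000058655, chr15:102073773-102097173, plus strand) rose by 0.50 on the log2 scale (standard error 0.08, limma adjusted p = 0.00182), which is 41.4% of the control mean.

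Eif4enif1 encodes 4E-T, which binds eIF4E, carries it into the nucleus and holds it in P bodies with repressed mRNA. Its counts were 8276, 8817, 7592 and 8249.7 in Prmt5-null libraries and 6341, 6418, 6287 and 6516 in controls. The groups did not overlap, and the log2 fold change of Eif4enif1 (ENSMUSG00000020454, chr11:3202392-3244588, plus strand) was 0.36 (standard error 0.07, limma adjusted p = 0.00489).

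The 3 eIF4G genes differed in what they showed. Eif4g3, which encodes a second full-length scaffold that binds eIF4E, had 3506, 4070.2, 2536 and 3716 normalized counts in Prmt5-null libraries and 5265, 4454, 5359 and 5299 in controls. Every Prmt5-null value was below the lowest control, that of CTRL-10370, and Eif4g3 (ENSMUSG00000028760, chr4:137993022-138208508, plus strand) fell by 0.58 (standard error 0.13, limma adjusted p = 0.0124). Eif4g2, also known as Dap5, lacks the part of the protein that binds eIF4E and serves initiation that does not depend on the cap. It had 30057, 30506, 27894.5 and 29836.5 in Prmt5-null libraries and 38461, 33984, 33184 and 39239 in controls, again without overlap, and fell by 0.29 (adjusted p = 0.0379). Without PRMT5-10617, PRMT5-10770 or PRMT5-10771, or CTRL-10370, CTRL-10597 or CTRL-10650, the adjusted p of Eif4g2 was between 0.0505 and 0.102. Eif4g1, the main scaffold, had 34669.5 ± 2637 (SD, n = 4) in Prmt5-null and 36805 ± 3409 in control cells, a log2 fold change of -0.08 (adjusted p = 0.592).

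Eif4e, which encodes the cap-binding protein, had 4911, 4666, 5577 and 4706 normalized counts in Prmt5-null libraries and 5126, 5523, 4828 and 5553 in controls. The values overlapped, with a log2 fold change of -0.08 (limma adjusted p = 0.535). Eif4a1, the helicase, had a log2 fold change of 0.07 (adjusted p = 0.631). All 3 genes for 4E-BP proteins, which sequester eIF4E until mTORC1 phosphorylates them, had negative log2 fold changes, and none had an unadjusted p below 0.05 or was called by limma, edgeR or DESeq2. The counts of Eif4ebp3 are uncertain, since 67.3% of its exon bases overlap another annotated gene on the same strand. Eif4ebp1 varied most, with 1915, 1128, 1817 and 1523 in Prmt5-null libraries and 2499, 2199, 1464 and 1768 in controls, overlapping groups that differed by -0.31 on the log2 scale (standard error 0.18, adjusted p = 0.287). Eif4ebp2 had 749.9 ± 135 against 841 ± 202 (log2 fold change -0.15, adjusted p = 0.595). Leaving out a library gave log2 fold changes from -0.45 to -0.16 for Eif4ebp1 and from -0.27 to -0.01 for Eif4ebp2.

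Eif5a encodes eIF5A, a factor that carries the modified residue hypusine and relieves ribosomes that stall, and its normalized counts were 27142 ± 2858 (SD, n = 4) in Prmt5-null and 29195 ± 1309 in control cells. Its log2 fold change of -0.11 did not pass the threshold (limma adjusted p = 0.444). Eif6, which keeps the large subunit from joining too early, had a log2 fold change of 0.00 with a standard error of 0.11.

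Genes grouped by symbol as elongation factors were positive in 5 of 6 cases, where 8184 of all 16250 genes tested were. Their median log2 fold change was 0.23, the negative value was that of Eef1e1 (-0.06), and 1 rose (16.7%, against 6.51%). Eef1g, a subunit of the exchange factor for eEF1A, had 36902, 32363, 41858 and 33875 normalized counts in Prmt5-null libraries and 30155, 29685, 28346 and 27752 in controls. The groups did not overlap, and the log2 fold change was 0.32 (standard error 0.09, limma adjusted p = 0.0386). Of the 100-base windows of Eef1g (ENSMUSG00000071644, chr19:8967041-8978479, plus strand), 49.4% also occur in other annotated genes, so its counts are uncertain. Its call was lost without PRMT5-10617 or PRMT5-10771 or without any 1 of the controls, where the adjusted p lay between 0.065 and 0.0971.

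Eef2, the translocase, had 264761, 244244, 273728 and 265353 normalized counts in Prmt5-null libraries and 235573, 220561, 219431 and 210714 in controls. Every Prmt5-null library was above every control, yet the difference of 0.24 on the log2 scale (standard error 0.10) did not pass in limma (adjusted p = 0.14), while DESeq2 called it (adjusted p = 0.00543). Eef1a1, the most abundant member, had 469303, 450355, 602608 and 468535 against 445847, 472472, 411724 and 383141. PRMT5-10770 stood apart from the other Prmt5-null libraries, which overlapped the controls (log2 fold change 0.21, adjusted p = 0.343). Eef1b2 had the same high replicate, with 64043.5 beside 46344, 43749 and 46007, and 40005, 45103, 40482 and 37269.9 in controls (log2 fold change 0.28, adjusted p = 0.142). On leaving out a library the log2 fold change was from 0.12 to 0.26 for Eef1a1 and from 0.16 to 0.34 for Eef1b2. That of Eef1a1 was as low as 0.04 under the other alternatives.

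Eef2k encodes the kinase that phosphorylates eEF2 and so slows elongation, and it is itself held in check by mTORC1 signalling. It had 1177, 1195, 1286 and 1176 normalized counts in the Prmt5-null libraries and 791, 844, 822 and 665 in the controls. The lowest Prmt5-null library was far above the highest control. Eef2k (ENSMUSG00000035064, chr7:120842831-120907450, plus strand) rose by 0.64 on the log2 scale, a 1.55-fold change (standard error 0.09, limma adjusted p = 0.00124). Without CTRL-10597, the lowest control, its log2 fold change was 0.56 and no member was past 1.5-fold. Of the members called by limma, Eef2k had the largest rise.

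Of the release factors, Etf1 encodes eRF1, which reads the stop codon, and Gspt1 encodes eRF3, the GTPase that drives release. Gspt1 had 9914, 8803, 8601 and 8938 normalized counts in Prmt5-null libraries and 11776, 10179, 10365 and 11294 in controls. The groups did not overlap, and Gspt1 (ENSMUSG00000062203, chr16:11219292-11254325, minus strand) fell by 0.27 (standard error 0.08, limma adjusted p = 0.0409). The adjusted p was from 0.0582 to 0.11 without PRMT5-10618, PRMT5-10770 or PRMT5-10771 or CTRL-10596, CTRL-10597 or CTRL-10650. Etf1 had 21015 ± 1758 and 19856 ± 1199 (SD, n = 4) in Prmt5-null and control cells, a log2 fold change of 0.08 (adjusted p = 0.559).

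**Figure D2:**
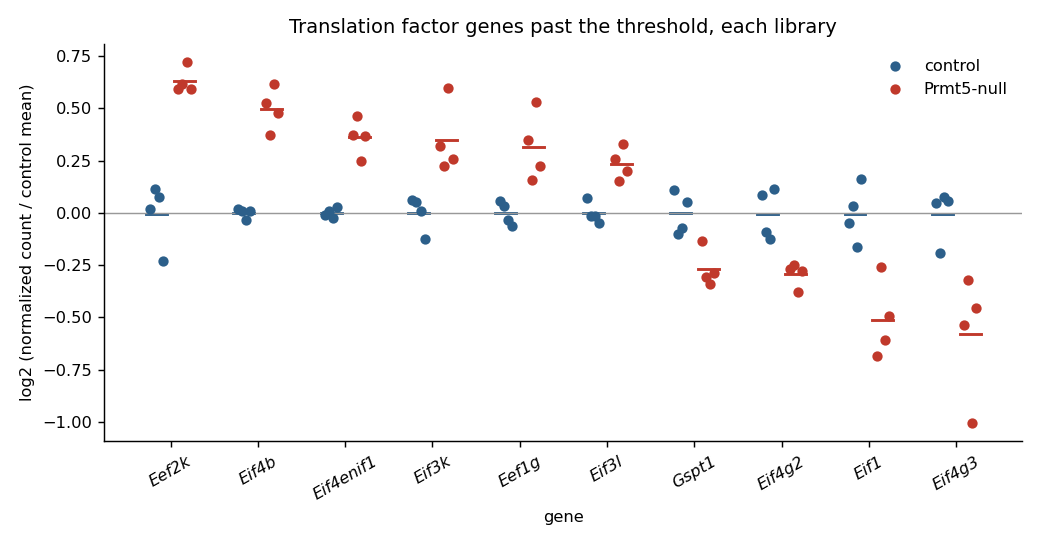
Normalized count of each of the 10 called members in each library, as log2 of its ratio to the control mean (vertical axis), with controls in blue, Prmt5-null libraries in red and a line at the mean of each group of 4. The groups do not overlap for any of these genes, and Eef2k and Eif4g3 lie farthest from the control mean.

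Levels of different members were compared only after division by the summed length of their exons. In control cells Eef1a1 led with 171799 ± 15661 normalized counts per kilobase of exon (SD, n = 4), followed by Eef2 with 66657.5 ± 3105. Eef1b2 came next with 16080.1 ± 1283, above Eif5a with 12282 ± 551 and Eef1g with 11148 ± 432. The order of these 5 was the same with the length of the longest transcript in place of all exons. The members with the largest rise and the largest fall were low in level: Eef2k was last of the 57 tested with 105 ± 10.8 and Eif4g3 had 460.5 ± 38.7, while Eif4b had 8630 ± 140.4 and stood 6th. In total, members held 3.17%, 3.01%, 3.38% and 3.13% of all normalized counts in Prmt5-null libraries and 2.91%, 2.92%, 2.81% and 2.77% in controls, shares that did not overlap and that the abundant elongation factors dominate.

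Splicing was read from the tables in which the authors list, for each gene and type of event, an inclusion level and its reads in each library. These rows are there because the authors' test selected them in the same comparison, so their direction is described and not tested. The lists hold 4 values per genotype without library names. They were assigned to genotypes by the usual group order of the tool and the study's description of the difference as wild type against knockout, and the exon of Prmt5 given above has the levels of that order, with 1088 to 1589 reads in each control and 50 to 139 in each Prmt5-null library. Of the 57 members, 8 had a row (14.0%), where 11.4% of all genes with a mean above 50 had 1. They gave 11 events: 6 skipped exons, 3 pairs of mutually exclusive exons and 2 retained introns, with none among alternative 3′ or 5′ splice sites. In 7 of the 11 events (63.6%) the levels of the genotypes did not overlap, and 50.8% of all 1918 events in the tables were of this kind. As each was selected for a difference, nothing is read from these shares. The skipped exons were less included in Prmt5-null cells in 4 of 6 cases, and 67.4% of all 913 skipped exons in the table were. Both retained introns had higher levels in Prmt5-null cells, as did 86.9% of all 337.

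**Figure D3:**
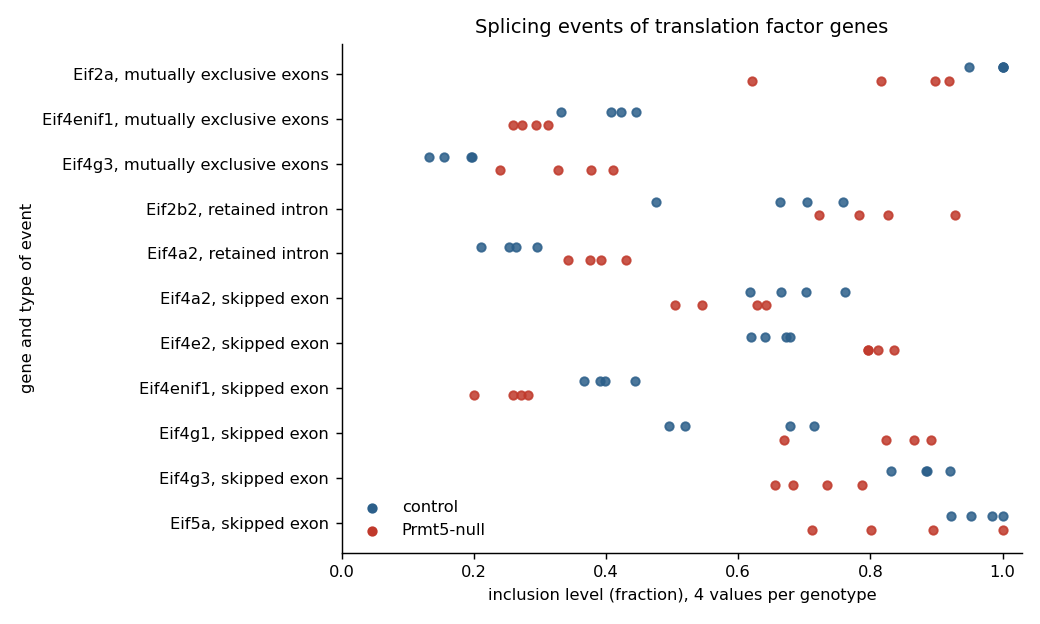
Inclusion level (fraction, horizontal axis) of the 11 splicing events of translation factor genes, with 4 values per genotype, controls in blue and Prmt5-null in red. For skipped exons and retained introns the level estimates the fraction of transcripts that hold the exon or intron. For the 3 pairs of exclusive exons it is the share of the first exon against the second. Levels of the Eif4e2 and Eif4enif1 skipped exons and of the Eif4a2 intron are separate, while those of Eif2b2, Eif4g1, Eif5a and the Eif4a2 exon overlap.

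Eif4enif1, which rose, had lower inclusion of an exon. Its 72-base exon at chr11:3233988-3234059, coding throughout and a multiple of 3 in length, had inclusion levels of 0.444, 0.398, 0.367 and 0.391 in controls and 0.282, 0.259, 0.271 and 0.201 in Prmt5-null cells. All Prmt5-null levels were below the lowest control, on 149 to 281 reads per library. The same exon, paired with a 61-base exon downstream at chr11:3234585-3234645 as mutually exclusive exons, averaged 0.402 in controls and 0.284 in Prmt5-null cells, again without overlap.

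Eif4g3, which fell, had lower inclusion of the 109-base exon at chr4:138120346-138120454. Controls had 0.884, 0.886, 0.831 and 0.921, and Prmt5-null cells 0.788, 0.683, 0.735 and 0.655, on 56 to 164 reads per library. The levels did not overlap. This exon is coding in 4 of 15 annotated transcripts and its length is not a multiple of 3, and no annotated transcript joins its neighbours directly. The upstream 123-base exon at chr4:138105314-138105436 was used in its place more often in Prmt5-null cells, with an average level of 0.339 against 0.17 in controls.

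The exons with lower inclusion are shown because they are where the transcripts of these called genes differ. They are read 5′ to 3′ from GENCODE vM21 transcripts on GRCm38, plus strand.
Eif4enif1 exon, 72 bases: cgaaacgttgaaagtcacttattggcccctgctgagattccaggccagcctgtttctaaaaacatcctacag
Eif4g3 exon, 109 bases: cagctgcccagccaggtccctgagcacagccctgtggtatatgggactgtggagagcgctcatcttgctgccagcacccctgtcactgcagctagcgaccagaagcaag

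Eif4a2 encodes the second eIF4A helicase, and its gene was not called as a whole (log2 fold change 0.19, limma adjusted p = 0.52). An intron of 402 bases at chr16:23110724-23111125 was retained at levels of 0.253, 0.211, 0.264 and 0.296 in controls and 0.376, 0.43, 0.392 and 0.343 in Prmt5-null cells, without overlap, on 1414 to 4045 reads per library. With reads on the junctions alone, averages were 0.167 and 0.264. The intron contains Snora81, a small nucleolar RNA gene at chr16:23110756-23110933 on the same strand, chosen for mention after its values were seen. Snora81 had 928, 1341, 1059 and 1048 normalized counts in Prmt5-null libraries and 404, 495, 699.7 and 674 in controls (log2 fold change 0.97, limma adjusted p = 0.00379). Reads from the small RNA and from the unspliced intron cannot be told apart in these counts. A skipped exon of 107 bases in Eif4a2, at chr16:23112351-23112457, had averages of 0.687 in controls and 0.58 in Prmt5-null cells with overlapping levels.

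Eif2b2 retained an intron of 163 bases at chr12:85219934-85220096, with 0.476, 0.704, 0.663 and 0.758 in controls and 0.722, 0.826, 0.928 and 0.783 in Prmt5-null cells. These levels overlapped and rest on 26 to 63 reads per library. Both introns begin with GT and end with AG. Their edges are printed with the intron in capitals, since the donor and acceptor are the parts that splicing reads, from GENCODE vM21 transcripts that keep them (GRCm38, plus strand).
Eif4a2 donor edge: tgagcgagagGTAATTTTGTTACAA
Eif4a2 acceptor edge: GGAATTTTGTTTGATTTTAGgagtggaagc
Eif2b2 donor edge: tccgggaggaGTATGGCAGGTCAAA
Eif2b2 acceptor edge: GGGTCTTGTTGCCTCCATAGactgcacggg

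Eif4e2, which encodes 4EHP, a cap-binding protein that represses mRNA in place of eIF4E, went the other way. Its 150-base exon at chr1:87214346-87214495 had 0.678, 0.62, 0.641 and 0.673 in controls and 0.812, 0.797, 0.797 and 0.835 in Prmt5-null cells, on 765 to 1277 reads per library. Every Prmt5-null level was above the highest control, while the gene's total did not differ beyond its spread (log2 fold change 0.06, limma adjusted p = 0.73). Eif4g1 exon 2, 94 bases at chr16:20673868-20673961, had averages of 0.602 and 0.813 on as few as 27 reads, with overlap. Eif5a exon 2, 94 bases at chr11:69920341-69920434 on the minus strand and outside the coding part in every annotated transcript, averaged 0.965 in controls and 0.852 in Prmt5-null cells, also with overlap. In Eif2a the first of 2 exons listed as exclusive averaged 0.987 in controls and 0.813 in Prmt5-null cells, without overlap but on as few as 10 reads. This level is the share of the first exon against the second in the few reads counted for the pair, not in all Eif2a transcripts. Each of these exons is in 5 of 7 annotated transcripts, so some transcripts hold both.

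Promoters of 45 members, 59 in all from 250 bases before to 50 after a start, were taken from RefSeq on GRCm38.p6 and searched on both strands for letters known from factors that act on growth and stress genes. The E-box CACGTG, the letters that Myc and its relatives bind, was in 14 of 59 member promoters (23.7%) and in 7.15% of all 32851 promoters of that length. Overlapping promoters of Eif5a hold the same site, which is counted more than once in the 14. By gene, 12 of 45 members (26.7%) and 8.09% of 27025 genes had the E-box. Of the called members searched, which were all but Eef1g and Eif4g2, these were Eef2k and Eif3k. TGATGCAA, bound by ATF4 with C/EBP proteins, was in 0 of 59 against 0.895%, and the cAMP response element TGACGTCA in 1 of 59, that of Eef2, against 1.79%. The shares over all promoters and genes were not limited to genes expressed in these cells. A match describes letters and does not show a bound site.

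Windows of 30 bases around the E-box nearest to the start, with the match in capitals and 5′ to 3′ on the strand of the gene, show what these 12 promoters share and where they differ.
Eef2, chr10:81176576-81176605, plus strand: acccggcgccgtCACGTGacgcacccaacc
Eef2k, chr7:120842788-120842817, plus strand: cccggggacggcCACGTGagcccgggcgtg
Eif1b, chr9:120492570-120492599, plus strand: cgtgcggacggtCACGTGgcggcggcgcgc
Eif3a, chr19:60790654-60790683, minus strand: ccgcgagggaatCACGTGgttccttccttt
Eif3f, chr7:108934335-108934364, plus strand: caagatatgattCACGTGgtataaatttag
Eif3k, chr7:28981915-28981944, minus strand: ctggaaggaaatCACGTGgtagacaaaaaa
Eif4a1, chr11:69672595-69672624, minus strand: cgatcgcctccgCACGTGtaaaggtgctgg
Eif4e, chr3:138527192-138527221, plus strand: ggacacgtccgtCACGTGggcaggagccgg
Eif4g1, chr16:20672730-20672759, plus strand: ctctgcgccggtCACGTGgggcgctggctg
Eif4h, chr5:134639488-134639517, minus strand: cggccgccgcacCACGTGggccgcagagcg
Eif5a, chr11:69921443-69921472, minus strand: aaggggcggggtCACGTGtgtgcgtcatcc
Eif5a2, chr3:28781148-28781177, plus strand: cagggcgagcttCACGTGacggggcgggac

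Eef2k is printed over the whole window, since it had the largest rise. Of its 3 promoters in RefSeq, the one at chr7:120842581-120842880 on the plus strand holds the E-box, in capitals, 31 bases before the start, and the other 2 hold none.
Eef2k promoter: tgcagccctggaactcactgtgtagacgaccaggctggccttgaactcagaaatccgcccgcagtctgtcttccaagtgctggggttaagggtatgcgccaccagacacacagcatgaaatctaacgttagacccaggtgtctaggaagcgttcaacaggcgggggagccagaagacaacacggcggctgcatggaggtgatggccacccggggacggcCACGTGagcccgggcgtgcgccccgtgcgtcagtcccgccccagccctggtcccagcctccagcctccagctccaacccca

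Genes that work with the translation factors were counted in lists by symbol. Of 83 cytosolic ribosomal protein genes tested, 78 had a positive log2 fold change with a median of 0.23, and 6 rose (7.23%, against 6.51% of all genes tested). The groups did not overlap, with Prmt5-null above, for 18 of the 83 (21.7%, against 9.67% of all genes tested). PRMT5-10770 was above all other libraries in genes such as Rps3, with 138543 normalized counts against 89850 to 95086 in the other Prmt5-null libraries. Controls had 74272 to 97993 for Rps3. The median lay between 0.12 and 0.28 on leaving out a library and between 0.21 and 0.24 under the other alternatives. The count of risers lay between 1 and 14, with 1 without PRMT5-10771, 2 without CTRL-10596 or CTRL-10650 and 3 without CTRL-10370 or CTRL-10597. Rps27l, a ribosomal protein gene that p53 activates, led: its normalized counts were 8693 ± 1609 (SD, n = 4) in Prmt5-null and 5792 ± 254 in control cells, a log2 fold change of 0.57 (limma adjusted p = 0.00543). Rpl12, of the large subunit stalk, had 2775 ± 247 against 2112 ± 195 (log2 fold change 0.39, adjusted p = 0.0155), and an adjusted p of 0.0522 without PRMT5-10771.

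The 20 cytosolic aminoacyl-tRNA synthetase genes, whose enzymes charge tRNA, went the other way: 10 fell (50%, against 7.33% of all genes tested), and 17 had a negative log2 fold change. Their median was -0.25, from -0.27 to -0.22 under the alternatives, and between 5 and 11 fell, with 5 without PRMT5-10771 and 6 without PRMT5-10618 or CTRL-10650. Yars, for tyrosine, averaged 4843 ± 512 (SD, n = 4) in Prmt5-null and 6489 ± 359 in control cells, and fell by 0.43 (limma adjusted p = 0.00734). Cars, for cysteine, fell by 0.42 (adjusted p = 0.00485) and Nars, for asparagine, by 0.34 (adjusted p = 0.00666).

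Of 18 genes of the integrated stress response, the program that follows phosphorylation of eIF2 alpha, 7 fell (38.9%, against 7.33% of all genes tested) and 1 rose (5.56%, against 6.51%). Their median log2 fold change was -0.31, from -0.42 to -0.19 under the alternatives, and between 4 and 8 fell. The count that fell was 4 without PRMT5-10617, PRMT5-10771, CTRL-10370 or CTRL-10650, and 2 rose without PRMT5-10617. Chac1, an enzyme that degrades glutathione and a target of ATF4, averaged 152 ± 14.9 normalized counts with n = 4 (SD) in Prmt5-null and 354 ± 36.4 in control cells, and fell by 1.22 (limma adjusted p = 0.000177). Ddit3, which encodes CHOP, fell by 0.54 (adjusted p = 0.00548). The riser was Sesn2, which encodes a leucine sensor that restrains mTORC1 and is also a p53 target, with 6352 ± 688 against 4022 ± 348 (log2 fold change 0.66, adjusted p = 0.00101). The 4 kinases of eIF2 alpha themselves had no call in limma, with 1 unadjusted p below 0.05, and DESeq2 called 1 lower, as did limma without CTRL-10650.

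Of 13 genes of mTORC1 and the eIF4E kinases, 1 fell (7.69%, against 7.33% of all genes tested): Mknk1, which encodes a kinase of eIF4E, with a log2 fold change of -0.27 (limma adjusted p = 0.0423), a call lost on leaving out any library except PRMT5-10618, with adjusted p from 0.0646 to 0.11. From 0 to 2 of the 13 fell and from 0 to 1 rose on leaving out a library, and at most 2 rose under the other alternatives. Of 22 partner genes, 4 fell (18.2%, against 7.33% of all genes tested) and 1 rose (4.55%, against 6.51%). The count that fell was 0 without PRMT5-10771, 1 without PRMT5-10617, CTRL-10596 or CTRL-10597, and 2 without PRMT5-10618 or CTRL-10650, and 0 rose on leaving out any library. The fall of Abcf1, an ATPase that binds eIF2, was 0.30 (adjusted p = 0.0134, and 0.0502 without PRMT5-10771). Of 9 mitochondrial translation factors 1 rose (11.1%, against 6.51%): Mtrf1l, a release factor of mitochondrial ribosomes, which averaged 1069 ± 90.2 (SD, n = 4) in Prmt5-null and 623 ± 71.5 in control cells (log2 fold change 0.78, adjusted p = 0.000624). The count that rose among these 9 was from 1 to 2 on leaving out a library.

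Markers of other cells were read beside these results. Of 8 feeder fibroblast genes, 7 were tested and Col1a2, Col3a1 and Sparc rose, where 6.51% of all genes tested did. All 7 had a positive log2 fold change, and for Col1a1 (0.60, adjusted p = 0.0717) each Prmt5-null library was above each control. Col1a2 had the most normalized counts, without division by length. The list had sums of 9412, 5359, 7923 and 6748 normalized counts in Prmt5-null libraries and 5976, 3350.4, 4128 and 4835 in controls. Those sums overlap, Lum was at most 15.1 in any library, and their part in the changes of the translation factor genes was not tested. The B cell list summed to 139330.0 ± 11116 in Prmt5-null and 137109 ± 7799.6 in control libraries (SD, n = 4), and Cd79a fell by 0.74 (limma adjusted p = 0.000327). Of activated and germinal center genes Fas rose by 0.47 (adjusted p = 0.00504), while Bcl6 was not called. Of plasma cell genes Xbp1 fell by 0.45 (adjusted p = 0.0305) and Prdm1 by 0.48 (adjusted p = 0.0428), while Sdc1, which encodes CD138, had a log2 fold change of 0.16 (adjusted p = 0.588). T cell markers summed to at most 16.7 in any library with Cd3e at 0 in all 8, and myeloid markers, led by Lyz2, to at most 119.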

How the data were processed

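Splenic B cells were cultured as iGBs and 4 Prmt5-null and 4 control libraries were sequenced. According to the submitters' processing notes and the study's methods, reads were trimmed with Trimmomatic 0.32, aligned to mm10 (GRCm38) with STAR 2.3.0e and counted on exons with featureCounts 1.4.4. The authors deposited gene values as a signal, counts divided by DESeq2 1.14.1 size factors. All values (100% in each library, within 0.01 of a read) were whole multiples of 1 read, so reads were recovered. The strand setting of the counting is not given in the sources used here, which leaves antisense and overlapping genes uncertain, and the same holds for near-identical copies.

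For splicing the authors deposited inclusion levels as a fraction, with counts of reads. Their p-value and FDR columns (a p-value for each event) and their differences hold the authors' own comparison and were not used; other columns hold coordinates and names.

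Members and lists were chosen with earlier results of these data known. limma 3.58.1 in R 4.3.3 (lmFit, eBayes with trend) was fitted to log2(value + 1) of 16250 genes with a mean of at least 10, in 8 libraries without a covariate, two-sided, after tests on simulated data. Alternatives were pseudocounts of 0.5 and 5, no filter, a mean above 50, quantile normalization, eBayes without trend, edgeR 4.0.16 and DESeq2 1.42.0 on recovered reads, each library left out, and a block for the sides of the second principal component, which put 2 libraries of each genotype on either side. edgeR called 1100 genes higher and 1174 lower, limma 1058 and 1191. Coordinates and lengths are from GENCODE vM21, with Python 3.11.15 and pandas 2.3.3. Named members were at most 12 called in each direction, a fixed set of core factors, the 5 highest per length and those with splicing events, and of other lists at most 4 called genes. The smallest exact permutation p for 4 against 4 is 0.0286.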

Additional observations from a re-analysis of the deposited data

Results flagged for a closer look

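In 12 of 130 groups of 4 values looked at, 1 library lay so far from the other 3 that its gap, as a share of the range of the group, passed Dixon's limit, and chance alone gives about 1 in 20. PRMT5-10770 was the far library in 6 of the 12. It was high for Eef1a1 (share 0.876, 602608 normalized counts against 450355 to 469303 in the others), Eef1b2 (0.872), Eif2s1 (0.841), Etf1 (0.957) and Rpl27a (0.842), and low for Eif4g1 (0.892). CTRL-10370 was low for Eif4g1 (0.836) and for Eif4g3 (0.895, 4454 against 5265 to 5359), and high in the myeloid marker sum (0.897). PRMT5-10617 was high for Abcf1 (0.914) and PRMT5-10618 in the B cell marker sum (0.843). In the inclusion levels of the Eif2a exclusive exons, 1 control value was 0.949 and the other 3 were 1, a share of 1. Those 3 stand at the highest level possible, so any lower value would give this share, and nothing is read from it. The value of 0.949 rests on 1 read against 18, and its group is counted in the 12. Without PRMT5-10770 the calls of Eef2k, Eif4b, Eif4enif1, Eif3k, Eef1g, Eif1 and Eif4g3 were kept, and those of Eif3l (limma adjusted p = 0.0629), Eif4g2 (0.0505) and Gspt1 (0.0582) were lost.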

How the results depend on the processing

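Of the members named, 29 genes under 17 alternatives gave 493 values, of which 444 kept their direction and their side of the threshold, 38 lost a call, 4 gained 1 and 7 near 0 changed sign without a call. The count of 6 risers was 3 with eBayes without trend, and from 3 to 6 on leaving out a library (3 without PRMT5-10617, CTRL-10596 or CTRL-10597). Of all genes, 6.51% were called higher at first, 5.29% with eBayes without trend, and from 3.92% to 7.03% on leaving out a library. The count of 4 that fell was 2 with no filter on low values and 2 with eBayes without trend, and from 2 to 4 on leaving out a library (2 without PRMT5-10771, CTRL-10650 or CTRL-10597). Of all genes, 7.33% were called lower at first, 3.73% with no filter, 5.69% with eBayes without trend, and from 4.52% to 7.55% on leaving out a library. Without PRMT5-10770 the count was 4, of which 2 (Eif1 and Eif4g3) were among the first 4. The count past 1.5-fold was from 0 to 3 on leaving out a library: 0 without CTRL-10597, and 3 without PRMT5-10618, when Eif1 and Eif4g3 joined Eef2k, and Eif4g3 alone joined without PRMT5-10617, PRMT5-10771 or CTRL-10370. The cause was not tested. Prmt5 and the called genes taken from the other lists, 19 in all, gave 323 values, of which 256 kept their call and 67 lost it. Among these were genes whose calls are not described above. Of 17 alternatives, Pelo lost its call in 10, and Dph3 and Dph5 in 9 each. Gars and Rpl27a lost theirs in 8 each, Asns in 6 and Rpl31 in 4. DESeq2 called 8 members higher (and 9.38% of all genes), edgeR 5 (6.77%), quantile normalization 7 (6.6%) and the principal component block 7 (8.19%). The 4 that fell were called by each of these, which called from 7.22% to 9.54% of all genes lower. The median stayed between -0.02 and 0.05. Events with at least 20 reads in every library numbered 10 of 11. Longest transcript lengths raised levels per length or left them as they were, and kept the order of the first 5. No paired analysis was possible because the labels share no replicate number between the genotypes. The standard errors of members had a median of 0.09, and the smallest change called was 0.24 on the log2 scale. Which sizes of change could be detected was not tested.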

Other observations

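A list of members known to be encoded by TOP mRNAs, whose leaders start with a run of pyrimidines and whose translation follows mTORC1, was written after the values were seen. It held Eef1a1, Eef1b2, Eef1d, Eef1g, Eef2, Eif3e, Eif3f, Eif3h and Eif4b. All 9 had a positive log2 fold change, from 0.08 to 0.50, where 8184 of all 16250 genes tested were positive. Their median of 0.25 lay between 0.18 and 0.31 under the 17 alternatives. Of the 9, 2 (Eef1g and Eif4b) rose, as did 6.51% of all genes tested. Of the other 48 members tested, 20 were positive and 28 negative, with a median of -0.04. Ribosomal protein genes, whose mRNAs are also of the TOP kind, had a median of 0.23, and of 0.12 at its lowest on leaving out a library. As the list was chosen on these values, its direction is a description.

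Of the 57 members tested, the 5 lowest in level per length in control cells were Eef2k (105 normalized counts per kilobase of exon), Eif4ebp2 (145), Eif4e3 (156), Eif2b3 (222) and Eif5b (243), with all exons as the length. With the longest transcript in its place, Eif2b3 (386) was above Eif5a2 (299) and Eif5b (304). The 5 genes include a kinase, an inhibitor of eIF4E and a cap-binding protein beside core initiation factors. They were singled out after their values were seen. Eif4e3 had a log2 fold change of -0.27 with a limma adjusted p of 0.226. Eif3j1 and Eif3j2, near-identical copies that share 47.6% and 84.0% of their 100-base windows with other genes, had log2 fold changes of -0.03 and -0.08, and their counts are uncertain.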
